A study of Mus musculus with 26 samples.

Results

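The 35 genes described here mark the walls of blood vessels and the fibrous matrix around them, and they were followed on all 26 arrays of a mouse model of Group3 medulloblastoma, a tumor of the cerebellum. They were taken by name as 17 endothelial, 11 pericyte and 7 matrix genes, and each was read from the brightest probe set that carried its symbol alone. Of these, 32 of 35 were measured, among 17097 genes in all. The pericyte genes Cspg4, Abcc9 and Tagln were not analysed here, which left 8 pericyte genes.

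The arrays fell into 7 groups, all of strain C57BL/6. Trp53 neurospheres (3 arrays) were floating cultures of granule neural progenitors, the cells that divide in the outer layer of the young cerebellum, from postnatal day 7 and of genotype Trp53-/-, Cdkn2c-/-. All other groups had the genotype Trp53-/-, Cdkn2c-/- Myc, so the loss of Trp53 and Cdkn2c was shared by every array. They were Group3 neurospheres (7 arrays), untreated tumors (5), secondary tumors (3), and tumors treated with the antifolate pemetrexed (2), with the nucleoside analogue gemcitabine (3) or with their combination (3). The labels give no dose, time or age for the tumors. The labels also do not say how the tumors were raised, what host tissue they hold, what a secondary tumor is, or whether each array stands for its own animal or culture. The p-values therefore measure only the spread between these arrays, which may be technical. Array titles carry the code dka (12 arrays) or mmm (14 arrays). Trp53 neurospheres and secondary tumors are all dka and treated tumors all mmm, and groups were compared only within a code.

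Blood vessels are tubes of endothelial cells wrapped by pericytes and smooth muscle, the mural cells. In the brain the endothelium is sealed by tight junctions and carries specific transporters, which together form the blood-brain barrier. Endothelial and mural cells share a basement membrane built on type IV collagen, while fibroblasts around larger vessels and in the meninges make the fibrillar collagens and small proteoglycans. A culture of neural cells has no circulation, whereas a tumor is fed by vessels of its host.

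All values are log2 signals, on which a difference of 1 is a doubling, and the median probe set lay between 4.65 and 4.82 on every array. The dka arrays ran from 2.56 to 13.9, Group3 neurosphere replicate 7 (mmm) from 2.64 to 13.7, and the other mmm arrays from as low as -0.41 to as high as 16.1. The mean of the dka Group3 neurospheres and the mean of mmm replicates 4 to 6 differed by an SD of 0.132 over all probe sets. Between pairs of single replicate arrays it was 0.292 to 0.911. Means of 3 arrays vary less than single arrays, so the 2 measures are not on the same footing. Replicate 7 differed from the same dka mean by an SD of 0.563. The cause was not tested. The labels do not say whether the dka and mmm neurospheres are separate cultures, and if they are not, the comparisons within the 2 codes, their average and their difference are not independent. Results on mmm neurospheres are also given without replicate 7, which leaves replicates 4 to 6, and with replicate 7 alone. Atoh1 and Barhl1, markers of granule progenitors, lay between 9.01 and 9.998 and between 9.48 and 9.77 in Trp53 neurospheres. On the 23 arrays of the Myc genotype they reached at most 5.94 and 4.82. Myc lay between 8.09 and 9.06 in Trp53 neurospheres and between 6.93 and 9.48 in the Myc genotype. Its paralog Mycn lay between 4.46 and 4.82 in Trp53 neurospheres and between 12.4 and 15.3 in the Myc genotype. The Myc probe set therefore did not separate the genotypes, while Mycn, Atoh1 and Barhl1 separated the same arrays without overlap. The name of the Myc genotype, and every direction given for it, rests on the labels.

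Vessel genes were dim in cultured Group3 cells and brighter in tumors. By group mean, 23 of the 32 genes lay below the median probe set in dka Group3 neurospheres and 22 of 32 in mmm Group3 neurospheres. The number was 7 in dka untreated tumors, 9 in mmm untreated tumors, 9 in secondary tumors and 14 in Trp53 neurospheres, against 39.6% to 42.5% of all genes over the groups. The mean log2 signal of the 17 endothelial genes was 4.12 ± 0.01 (SD, n = 3) in dka Group3 neurospheres and 5.65 ± 0.75 (n = 3) in dka untreated tumors. Under mmm it was 4.11 ± 0.09 (n = 4) in neurospheres and 5.93 ± 0.20 (n = 2) in untreated tumors. For the 8 pericyte genes the means were 4.88 ± 0.16 and 6.75 ± 0.94 under dka, and 4.84 ± 0.45 and 6.90 ± 0.29 under mmm. For the 7 matrix genes they were 5.64 ± 0.38 and 6.86 ± 1.18 under dka, and 5.32 ± 0.81 and 7.47 ± 0.67 under mmm. Fewer cells of a type and less RNA per cell cannot be told apart in such bulk samples.

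**Figure D1:**
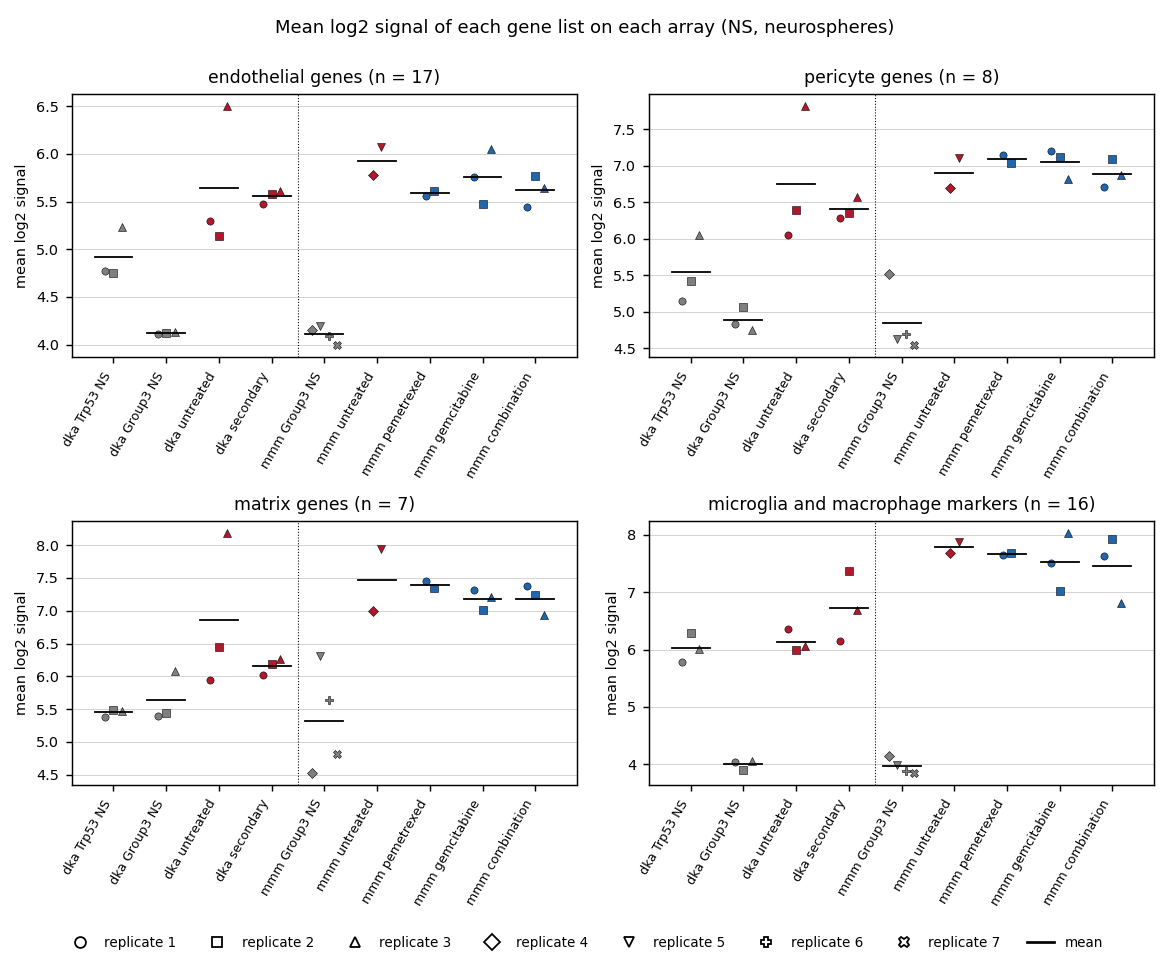
Mean log2 signal of the endothelial, pericyte and matrix genes and of 16 microglia and macrophage markers (y axes) on each of the 26 arrays, by group (x axes; NS, neurospheres). Symbols give the replicate, black bars the group mean, and the dotted line parts dka from mmm arrays; endothelial means lie between 3.99 and 4.19 in all Group3 neurospheres and between 5.14 and 6.51 in all tumors.

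Untreated tumors were set against Group3 neurospheres, which asks how the same genotype differs between a tumor and a culture. With both codes averaged, 26 of 32 genes rose and 0 fell, when 12.6% of all 17097 genes rose (limma, adjusted p under 0.05). All 17 endothelial genes rose, with a median difference of 1.55, as did 5 of 8 pericyte genes (median 1.21) and 4 of 7 matrix genes (median 1.03), when the median over all genes was -0.02. Within dka 24 of 32 rose, against 8.81% of all genes, made up of 15 endothelial, 5 pericyte and 4 matrix genes. Within mmm 17 of 32 rose, against 10.6% of all genes, made up of 12 endothelial, 3 pericyte and 2 matrix genes. The 32 genes include none that fell in either code. Without Group3 neurosphere replicate 7, all 17 of the mmm calls and all 26 of the averaged calls were kept. With replicate 7 as the only mmm neurosphere, a setting chosen after seeing the data in which that array is assumed to vary like the other groups, 16 of the 17 mmm calls were kept (Cdh5 lost) and 24 of the 26 averaged calls (Pdgfrb and Kcnj8 lost), while Myl9 and Col4a2 were added to both.

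Ly6c1, Slco1c1 and Cldn5 had the 3 largest averaged differences among the endothelial genes, at 3.21, 3.16 and 2.86. Cldn5 encodes claudin-5, the main tight junction protein of brain endothelium. Its log2 signal was 7.02, 5.32 and 7.56 in dka untreated tumors and 4.01, 3.77 and 4.41 in dka Group3 neurospheres, and 7.10 and 7.37 in mmm untreated tumors against 3.87, 4.01, 4.16 and 4.31 in mmm neurospheres. Every tumor lay above every neurosphere, and the difference was 2.57 (SE 0.47, limma adjusted p = 0.000773) under dka and 3.15 (SE 0.50, limma adjusted p = 0.000209) under mmm. Slco1c1 encodes a thyroid hormone transporter of the barrier. It read 6.22, 5.04 and 7.07 in dka tumors against 4.21, 4.28 and 3.85 in neurospheres, and 8.40 and 8.38 in mmm tumors against 3.66, 4.09, 4.22 and 4.33. The groups again did not overlap, with differences of 2.0 (SE 0.56, limma adjusted p = 0.0168) and 4.31 (SE 0.60, limma adjusted p = 5.23e-05). The difference between the codes, 2.31, did not pass the test (limma adjusted p = 0.08). Ly6c1, a surface antigen of mouse endothelium and of some leukocytes, read 7.46, 6.55 and 7.82 in dka tumors against 4.34, 4.93 and 4.27, and 8.30 and 8.45 in mmm tumors against 4.22, 4.82, 4.82 and 5.02. It rose by 2.76 (SE 0.40) and 3.65 (SE 0.43), with no overlap in either code. Occludin (Ocln), another tight junction protein, was dimmer: it rose under mmm (1.09, SE 0.24, limma adjusted p = 0.00266), while under dka the difference was 0.43 (limma adjusted p = 0.209).

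General endothelial markers moved the same way. Vwf, the clotting factor stored in endothelial granules, read 5.86, 6.17 and 7.12 in dka untreated tumors against 3.77, 3.86 and 3.62 in neurospheres, and 5.55 and 6.83 in mmm tumors against 3.49, 3.68, 3.95 and 3.61. All 5 tumors lay above all 7 neurospheres, by 2.63 (SE 0.34, limma adjusted p = 2.75e-05) and 2.51 (SE 0.36, limma adjusted p = 7.13e-05). Cd34, a sialomucin of endothelial and blood progenitor cells, read 4.66, 5.23 and 7.51 in dka tumors against 3.72, 3.55 and 3.49, and 6.35 and 6.84 in mmm tumors against 3.68, 3.76, 3.63 and 3.35. The groups did not overlap, and Cd34 rose by 2.22 (SE 0.51, limma adjusted p = 0.00427) under dka and by 2.99 (SE 0.54, limma adjusted p = 0.000586) under mmm. Replicate 3 was well above the other dka tumors, and without it the dka difference was 1.36 (limma adjusted p = 0.0171). The VEGF receptors Kdr and Flt1 rose by 1.37 and 1.19 under dka and by 2.13 and 1.90 under mmm. The junction protein Esam rose by 2.09 and 1.91. Pecam1, Cdh5 and Tie1, which mark endothelium of any tissue, were dim, with group means of 3.66 to 4.52 in untreated tumors. They rose by 0.82 (SE 0.18), 1.27 (SE 0.24) and 0.70 (SE 0.13) with both codes averaged. The smallest averaged rise in the list was that of Robo4, a guidance receptor of endothelium, at 0.68 (SE 0.17, limma adjusted p = 0.00469). Of the 11 genes with several usable probe sets, 10 had the same sign on all of them in each code. In Cdh5 a dimmer probe set differed by -0.04 and -0.19.

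Of 20 other endothelial genes 18 were measured, and with both codes averaged 10 of these rose and 1 fell (median 0.74). Those that rose included the apelin receptor Aplnr (2.51, SE 0.41), the phosphatase Ptprb (1.75, SE 0.28) and the transcription factor Sox18 (1.65, SE 0.32). Plvap, the 1 that fell, which forms the diaphragms of leaky, fenestrated endothelium, decreased by 1.84 (SE 0.34, limma adjusted p = 0.000424), and by more under dka than under mmm (difference between the codes 2.50, limma adjusted p = 0.0277). Its mean was high in the cultures themselves, at 8.96 in dka Group3 neurospheres against 5.87 in dka untreated tumors and 4.52 in Trp53 neurospheres. Which cells gave the Plvap signal was not tested. Among 10 further genes of the blood-brain barrier, the drug efflux pump Abcb1a rose (1.38, SE 0.22) and 2 fell, the junction scaffold Tjp1 by 0.85 and the amino acid transporter Slc7a5 by 0.67. Of 16 angiogenic ligands and co-receptors 3 rose and 3 fell, when 12.6% of all genes rose and 14.4% fell. Efnb2 (1.85), the pericyte growth factor Pdgfb (1.65) and Nrp2 (1.35) rose, and the lymphatic growth factor Vegfc fell by 1.44.

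The promoters of the endothelial genes were read for the core letters bound by ETS factors, transcription factors that many endothelial genes use. The window was the 250 bases before the RefSeq start in build GRCm38.p6, and 26 of the 35 genes had an entry. AGGAAG on either strand lay in 10 of 17 endothelial windows, which belong to 9 of 13 genes, in 0 of 9 pericyte windows and 0 of 4 matrix windows, when 29.5% of all 32851 windows held it. The CArG box, bound by serum response factor in smooth muscle genes, lay in 1 of 9 pericyte windows, that of Myl9, and in 1.47% of all windows. These matches are letters in a window only. Endothelial genes with and without AGGAAG rose in untreated tumors against Group3 neurospheres with both codes averaged. Those without it, among the genes with an entry, were Cldn5, Kdr, Tek and Ocln. The endothelial windows of Cd34 at chr1:194938571-194938820, Emcn at chr3:137340828-137341077 and Robo4 at chr9:37401722-37401971 are examples with a match. The pericyte window with a match is Myl9 at chr2:156775214-156775463, whose gene did not pass the averaged test. These windows lie on the plus strand, with the matched motif in capitals.
Cd34: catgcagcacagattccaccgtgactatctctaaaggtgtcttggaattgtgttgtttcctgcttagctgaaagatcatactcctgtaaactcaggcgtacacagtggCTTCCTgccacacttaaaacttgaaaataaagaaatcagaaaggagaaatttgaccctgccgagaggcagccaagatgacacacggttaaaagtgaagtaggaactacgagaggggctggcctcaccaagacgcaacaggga
Emcn: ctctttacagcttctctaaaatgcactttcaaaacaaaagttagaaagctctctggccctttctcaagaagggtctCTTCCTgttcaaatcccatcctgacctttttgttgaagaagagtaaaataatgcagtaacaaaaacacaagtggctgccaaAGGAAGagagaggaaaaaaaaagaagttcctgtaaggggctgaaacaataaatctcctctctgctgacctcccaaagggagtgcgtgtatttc
Robo4: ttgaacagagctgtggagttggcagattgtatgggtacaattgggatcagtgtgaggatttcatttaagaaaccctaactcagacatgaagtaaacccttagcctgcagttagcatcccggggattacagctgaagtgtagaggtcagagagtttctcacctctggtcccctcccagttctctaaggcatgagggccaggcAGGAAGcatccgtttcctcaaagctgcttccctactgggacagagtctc
Myl9: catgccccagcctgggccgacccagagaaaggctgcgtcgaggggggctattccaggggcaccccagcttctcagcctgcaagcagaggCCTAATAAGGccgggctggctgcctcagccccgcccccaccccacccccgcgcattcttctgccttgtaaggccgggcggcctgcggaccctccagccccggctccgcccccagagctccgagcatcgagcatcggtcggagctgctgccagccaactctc

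Emcn, the endothelial sialomucin endomucin, was among the less even members. It read 5.37, 6.13 and 7.84 in dka untreated tumors against 3.98, 5.12 and 5.90 in neurospheres, which overlap, and rose by 1.45 (SE 0.50, limma adjusted p = 0.0499). Under mmm it read 6.55 and 6.84 against 4.92, 5.16, 5.06 and 4.21, with no overlap and a rise of 1.86 (SE 0.53, limma adjusted p = 0.0161).

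Rgs5 had the largest difference of the 32 genes in both codes. It encodes a brake on G protein signalling that marks brain pericytes. Its log2 signal was 8.43, 8.64 and 10.8 in dka untreated tumors and 3.83, 3.66 and 3.22 in neurospheres, and 9.59 and 9.67 in mmm tumors against 3.18, 3.61, 4.14 and 4.25. The gap between the lowest tumor and the highest neurosphere exceeded the spread within either group in both codes. The differences were 5.70 (SE 0.50, limma adjusted p = 5e-07) and 5.84 (SE 0.53, limma adjusted p = 6.58e-07). Its 3 dimmer probe sets differed by 2.56 to 3.27 under dka and by 1.75 to 4.07 under mmm.

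Acta2, smooth muscle actin of the contractile mural cells, read 7.70, 7.97 and 9.40 in dka tumors against 4.33, 6.09 and 4.34, and 7.78 and 8.70 in mmm tumors against 5.10, 5.14, 4.80 and 4.86. Tumors lay above all neurospheres, by 3.44 (SE 0.57, limma adjusted p = 0.000317) and 3.26 (SE 0.61, limma adjusted p = 0.000786). Vtn, the matrix protein vitronectin that brain pericytes secrete, read 6.35, 7.27 and 8.68 in dka tumors against 3.67, 4.10 and 4.81, and 8.24 and 9.20 in mmm tumors against 5.21, 3.93, 4.0 and 3.57. It did not overlap either and rose by 3.24 (SE 0.58) and 4.54 (SE 0.61). Pdgfrb, the receptor through which endothelial PDGF-B recruits pericytes, was dim and rose under dka (1.09, SE 0.32, limma adjusted p = 0.0217), with a difference of 0.27 (SE 0.34) under mmm. Kcnj8, a potassium channel subunit of pericytes, rose under dka by 1.47 (SE 0.50, limma adjusted p = 0.047) and differed by 0.88 (SE 0.53) under mmm. Of 14 other mural genes 4 rose with both codes averaged, Higd1b (1.07), S1pr3 (1.17), Tpm2 (0.78) and Gja4 (0.44), and 0 fell. Over all genes 12.6% rose and 14.4% fell.

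**Figure D2:**
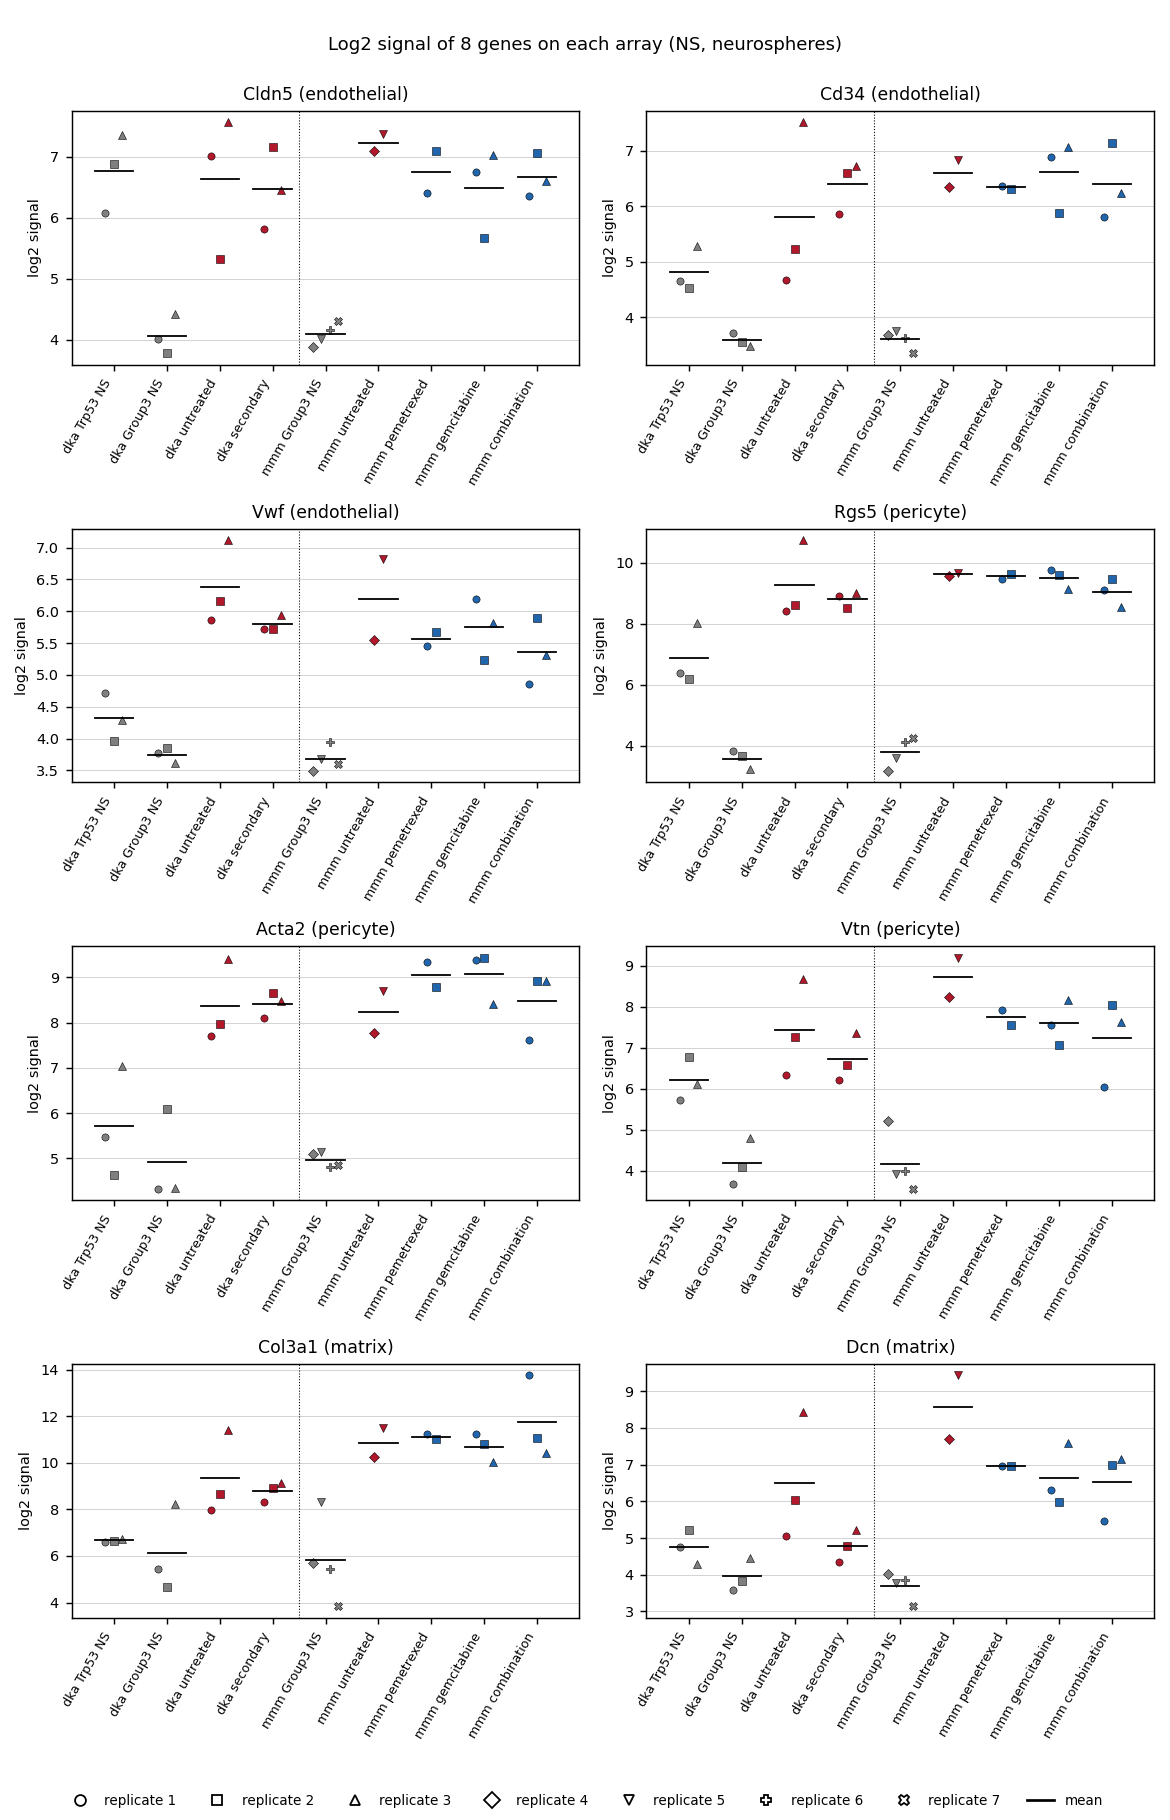
Log2 signal (y axes) of 3 endothelial genes (Cldn5, Cd34, Vwf), 3 pericyte genes (Rgs5, Acta2, Vtn) and 2 matrix genes (Col3a1, Dcn) on each array, by group (x axes; NS, neurospheres). Symbols give the replicate, bars the group mean, and the dotted line parts dka from mmm; Rgs5 stays under 4.3 in all Group3 neurospheres and above 8.4 in all tumors, with Trp53 neurospheres between 6.18 and 8.03.

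Of the 7 matrix genes 4 rose under dka, when 8.81% of all genes rose. Under mmm Col3a1 and Dcn were the 2 that passed, when 10.6% of all genes rose. Dcn, the proteoglycan decorin, read 5.04, 6.02 and 8.43 in dka untreated tumors against 3.57, 3.83 and 4.47 in neurospheres, and 7.70 and 9.43 in mmm tumors against 4.02, 3.77, 3.86 and 3.14. There was no overlap in either code, and Dcn rose by 2.54 (SE 0.66, limma adjusted p = 0.0101) and 4.87 (SE 0.70, limma adjusted p = 7.43e-05). Col3a1, a fibrillar collagen of vessel walls and soft connective tissue, read 7.97, 8.66 and 11.4 in dka tumors against 5.45, 4.66 and 8.23, and 10.2 and 11.5 in mmm tumors against 5.70, 8.33, 5.42 and 3.84. The dka groups overlapped through neurosphere replicate 3, with a rise of 3.23 (SE 1.06, limma adjusted p = 0.0379), and the mmm groups did not, with a rise of 5.04 (SE 1.12, limma adjusted p = 0.00311). Without mmm untreated tumor replicate 5 that difference was 4.42 (limma adjusted p = 0.0629). Its relative Col1a1 rose by 1.34 (SE 0.30) under dka and differed by 0.72 (SE 0.31, limma adjusted p = 0.112) under mmm. Lumican (Lum), another small proteoglycan, rose by 1.58 (SE 0.52) under dka and differed by 1.54 (SE 0.56, limma adjusted p = 0.0543) under mmm. Col1a2 was read by a dim probe set, at 2.92 to 3.89 on all 26 arrays, and gave no contrast. Of 25 other fibroblast and matrix genes 5 rose and 3 fell with both codes averaged, when 12.6% of all genes rose and 14.4% fell. The list median was 0.22. Those that rose included Col6a3 (2.25), biglycan Bgn (2.09) and nidogen Nid1 (1.91), and the laminin chain Lamb2 fell by 1.70.

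**Figure D3:**
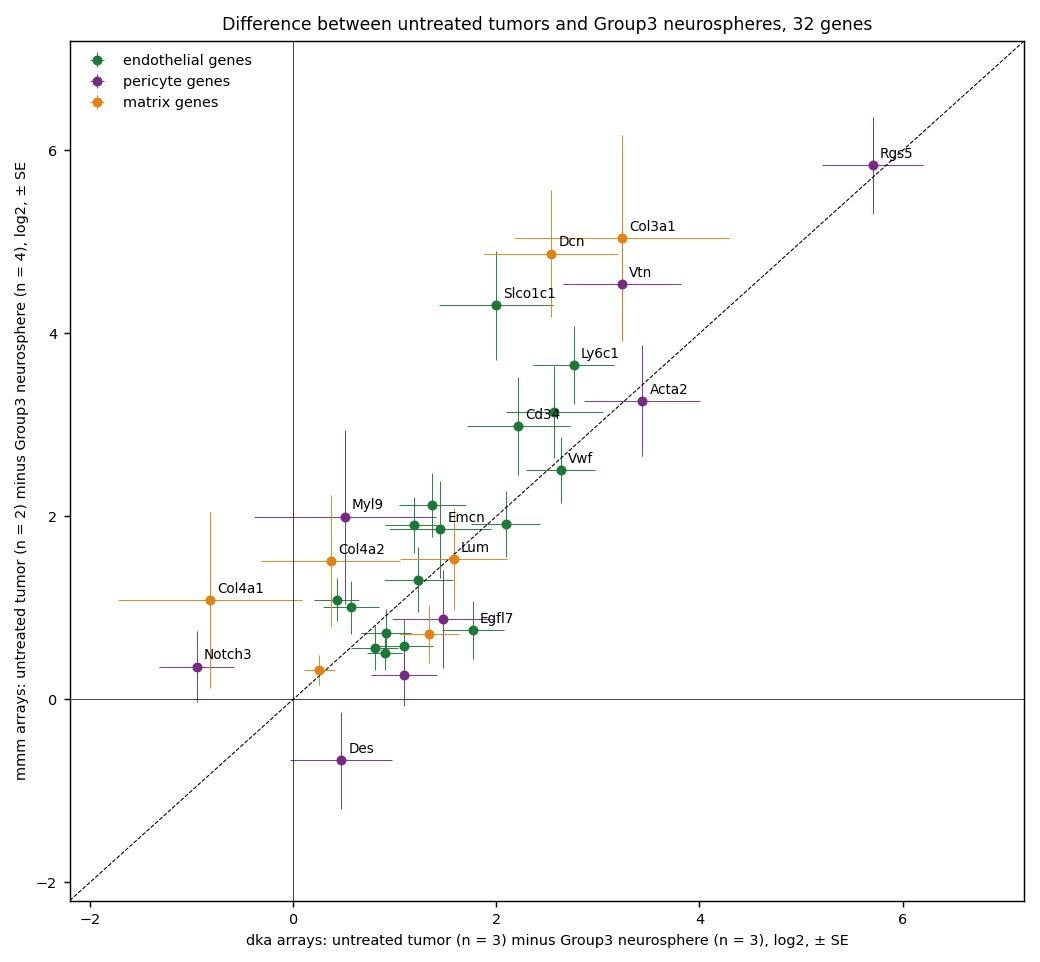
Log2 difference of untreated tumors minus Group3 neurospheres under dka (x axis) and mmm (y axis) for the 32 measured genes, with bars of 1 SE and the line of equal differences (dashed). Rgs5 lies at the upper right with 5.70 and 5.84; Col4a1 (-0.82 and 1.09), Notch3 (-0.95 and 0.36) and Des (0.47 and -0.67) change sign between the codes without passing the test in either.

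The 6 genes that did not pass were Col4a1, Col4a2, Col1a2, Notch3, Myl9 and Des. The chains of type IV collagen, Col4a1 and Col4a2, form the basement membrane of vessels. Col4a1 read 9.998, 10.3 and 10.4 in dka Group3 neurospheres against 8.51, 9.02 and 10.7 in dka tumors, and 5.83, 11.6, 11.1 and 9.25 in mmm neurospheres against 10.2 and 10.8 in mmm tumors. The groups overlapped in both codes, and the averaged difference was 0.13 (SE 0.66, limma adjusted p = 0.913). Col4a2 read 7.89, 8.62 and 8.18 in dka neurospheres and 5.09, 9.38, 8.21 and 7.07 in mmm neurospheres, against 7.60, 8.43 and 9.76 and 8.56 and 9.33 in the tumors. It overlapped too, with an averaged difference of 0.94 (SE 0.50, limma adjusted p = 0.181). Both chains were lowest in mmm replicate 4. RefSeq has the pair transcribed in opposite directions, with 5′ ends that overlap by 22 bases at chr8:11312805-11312826 (GRCm38.p6, plus strand shown), the stretch that both share.
Col4a2 start to Col4a1 start: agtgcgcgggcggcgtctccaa

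Notch3, the receptor on mural cells through which endothelium matures them, was bright in cultured Group3 cells. It read 7.62, 8.04 and 7.08 in dka Group3 neurospheres against 6.01, 6.30 and 7.58 in dka untreated tumors, and 7.33, 7.01, 8.08 and 7.08 in mmm neurospheres against 7.84 and 7.63 in mmm tumors. The groups overlapped in both codes, and the differences of -0.95 (SE 0.37, limma adjusted p = 0.0788) and 0.36 (SE 0.39, limma adjusted p = 0.574) did not pass the test. Myl9, a myosin light chain of smooth muscle, read 8.82 in mmm neurosphere replicate 4 and 5.15, 5.02 and 3.96 in replicates 5 to 7, against 7.15 and 8.32 in mmm tumors. Desmin (Des), the intermediate filament of muscle, read 6.63 in replicate 4 and 3.63, 3.40 and 4.22 in the others, against 3.82 and 3.78 in the tumors. Replicate 4 was the highest of the mmm neurospheres in both genes and the only one above the lower tumor in Myl9. Without replicate 4, 17 of 17 mmm calls were kept and Myl9 and Egfl7 were added. Leaving out replicates 4 and 7 together, a setting chosen after seeing the data, kept 25 of the 26 averaged calls, lost Kcnj8, added Myl9 and Des as higher, and added Col4a1 as lower (-0.82, limma adjusted p = 0.0481).

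**Figure D4:**
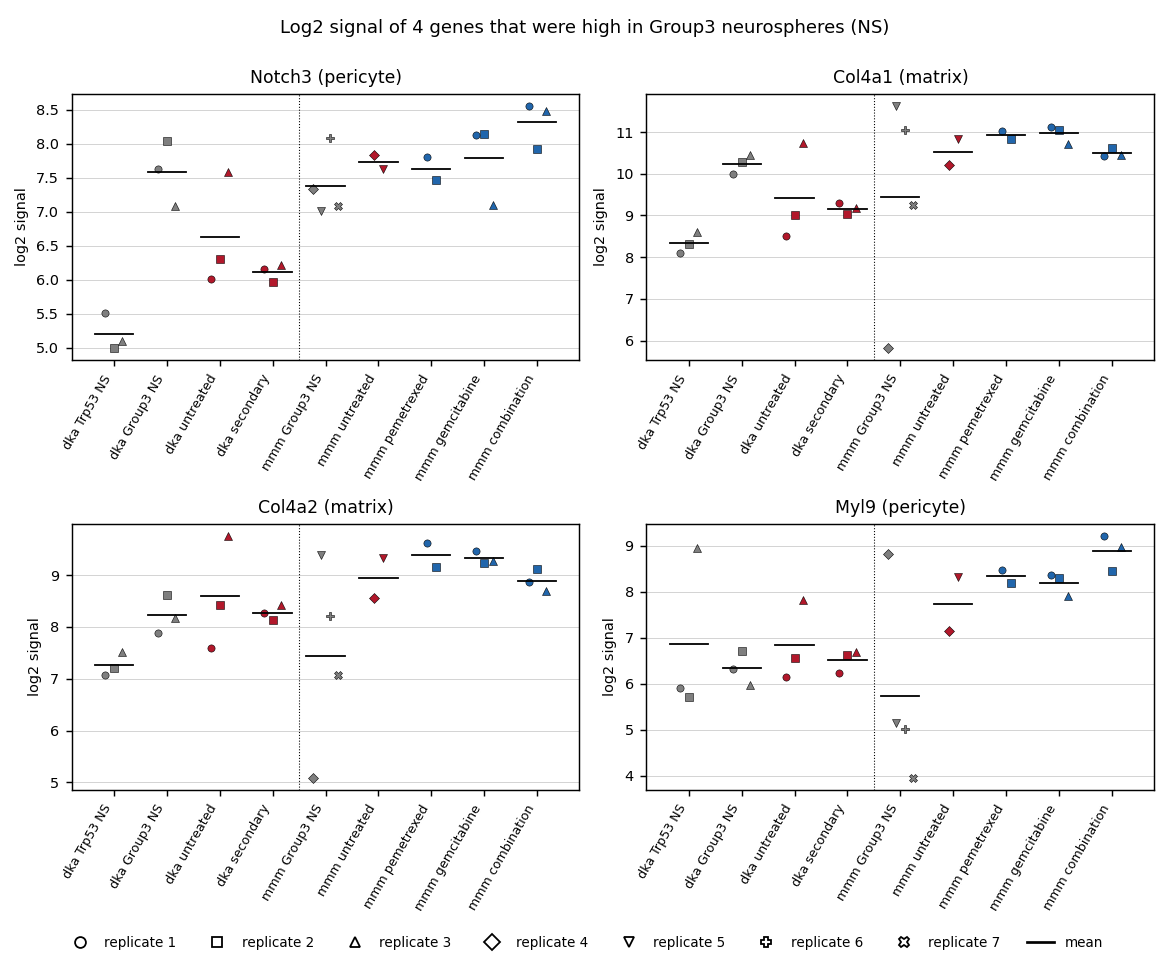
Log2 signal (y axes) of Notch3, Col4a1, Col4a2 and Myl9 on each array, by group (x axes; NS, neurospheres), with replicates as symbols and group means as bars. Group3 neurospheres reach into the range of the untreated tumors in each panel, and mmm neurosphere replicate 4 lies apart at 5.83 for Col4a1, 5.09 for Col4a2 and 8.82 for Myl9.

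A difference between the codes in the size of the tumor to neurosphere contrast was tested for each gene. With limma 0 of 32 passed, when 9.17% of all genes did, and 4 had an unadjusted p under 0.05, when 25.6% of all genes had. With arrays weighted by their quality 1 of 32, Slco1c1, passed, when 15.2% of all genes did. The largest were Dcn (2.33 larger under mmm, limma adjusted p = 0.128) and Slco1c1 (2.31, limma adjusted p = 0.08). Without dka untreated tumor replicate 3, 3 of 32 passed, when 8.43% of all genes did. They were Slco1c1 (2.79), Notch3 (1.78) and Dcn (3.30), with limma adjusted p values of 0.0429, 0.0272 and 0.0174.

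The level of vessel genes differed between the dka untreated tumors themselves. Replicate 3 had the highest signal of the group in 31 of 32 genes, including 17 of 17 endothelial and 8 of 8 pericyte genes, and the exception was Col1a2. Over all genes replicate 3 was the highest in 30.2%. It exceeded the mean of replicates 1 and 2 by a median of 1.22 in endothelial, 1.68 in pericyte and 1.98 in matrix genes. Oligodendrocyte markers had a mean of 8.91 in replicate 3 and of 5.62 and 4.5 in replicates 1 and 2. Astrocyte markers gave 7.30 against 6.97 and 4.93, neuronal markers 9.03 against 8.60 and 8.17, and microglia and macrophage markers 6.05 against 6.36 and 5.99. Their part in the level of the vessel genes was not tested. Without replicate 3, 13 of the 24 dka calls were kept. Those lost were Pecam1, Cdh5, Slco1c1, Emcn, Eng, Robo4, Pdgfrb, Kcnj8, Col3a1, Dcn and Lum, and Notch3 was added as lower in tumors (-1.43, limma adjusted p = 0.00747). Rgs5, Acta2, Vtn, Cldn5, Ly6c1, Vwf and Cd34 stayed among those kept.

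Markers of other cell types were read in the same comparison. Over all 17097 genes, 12.6% rose and 14.4% fell with both codes averaged. Under dka 8.81% rose and 1665 genes fell, and under mmm 10.6% rose and 1969 genes fell. All 16 microglia and macrophage markers rose from Group3 neurospheres to untreated tumors with both codes averaged (median 2.34), led by the lysozyme Lyz2 (5.58) and the protease Ctss (5.46). Their mean log2 signal was 5.99 to 6.36 in dka tumors against 3.90 to 4.06 in dka neurospheres, and 7.69 to 7.88 in mmm tumors against 3.85 to 4.14. Of 10 neuronal markers 9 rose and 0 fell (median 5.26), and of 8 oligodendrocyte markers 4 rose and 0 fell (median 1.74). The codes differed, since under mmm 4 oligodendrocyte markers rose and 0 fell. Under dka 1 rose, Mbp by 4.01, and 2 fell, Olig1 by 5.46 and Olig2 by 4.14. Of 8 astrocyte markers 2 rose and 2 fell with the codes averaged (median 0.73). Under dka 0 of them rose and 2 fell, and under mmm 3 rose and 1 fell. Of 3 red blood cell markers 1 rose, the hemoglobin gene Hba-a1 by 5.54 (SE 0.32), with a list median of 0.38. Of 6 choroid plexus markers 0 passed the test with limma, with 1 at an unadjusted p under 0.05. The part of each cell type in the differences of single vessel genes was not tested.

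Cultures without the Myc genotype were compared with Group3 cultures, which asks how the vessel genes differ between the 2 kinds of neurosphere. Group3 neurospheres were lower than Trp53 neurospheres in 5 of 32 genes and higher in 1, when 9.22% of all genes were lower and 13.4% higher. Lower were Rgs5, Slco1c1, Cldn5, Vtn and Ly6c1, and higher was Notch3. The median difference was -0.49 over endothelial, -0.65 over pericyte and -0.07 over matrix genes, against 0.08 over all genes.

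Slco1c1 read 6.88, 7.09 and 7.98 in Trp53 neurospheres against 4.21, 4.28 and 3.85 in dka Group3 neurospheres. The groups were far apart, by -3.20 (SE 0.56, limma adjusted p = 0.000314). Cldn5 read 6.07, 6.88 and 7.36 against 4.01, 3.77 and 4.41, again with no overlap, a difference of -2.71 (SE 0.47, limma adjusted p = 0.000307). Rgs5 read 6.40, 6.18 and 8.03 against 3.83, 3.66 and 3.22, a difference of -3.30 (SE 0.50, limma adjusted p = 7.29e-05), and was highest in replicate 3. Its dimmer probe sets differed by -0.87 to -1.11. Vtn read 5.73, 6.79 and 6.13 against 3.67, 4.10 and 4.81 (-2.02, SE 0.58, limma adjusted p = 0.015). Ly6c1 read 6.44, 6.02 and 6.86 against 4.34, 4.93 and 4.27 (-1.93, SE 0.40, limma adjusted p = 0.00152). Neither Vtn nor Ly6c1 overlapped, although Vtn did not pass without Trp53 neurosphere replicate 2 (-1.73, limma adjusted p = 0.0723) or Group3 neurosphere replicate 1 (-1.76, limma adjusted p = 0.0671). It also did not pass as the mean of its probe sets (-1.13, limma adjusted p = 0.0802).

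Notch3 had the opposite pattern, at 5.51, 5.0 and 5.10 in Trp53 neurospheres and 7.62, 8.04 and 7.08 in Group3 neurospheres. It was higher in every Group3 array, by 2.38 (SE 0.37, limma adjusted p = 9.12e-05). Col4a1 read 8.11, 8.31 and 8.60 in Trp53 neurospheres, below all dka Group3 arrays, and its difference of 1.90 (SE 0.91) did not pass (limma adjusted p = 0.151). Several pan-endothelial genes were close to the threshold, with Cdh5 at -0.91 (limma adjusted p = 0.0566), Esam at -0.93 (limma adjusted p = 0.0562) and Cd34 at -1.24 (limma adjusted p = 0.0879).

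Genes outside the 32 went both ways, when 13.4% of all genes were higher in Group3 neurospheres and 9.22% lower. Sox18, a transcription factor of vascular endothelium, was lower in Group3 neurospheres (4.12 against 9.72, -5.60, SE 0.43) and Plvap was higher (8.96 against 4.52, 4.44, SE 0.46). Of 16 angiogenic genes 7 were higher and 0 lower, including the ligands Vegfa (2.35) and Angpt2 (2.60) and the co-receptors Nrp1 (2.79) and Nrp2 (2.76). Of 25 other matrix genes 8 were higher, among them Col5a2 (4.44), and 1 lower, Pdgfra (-3.54), a receptor of fibroblasts and oligodendrocyte progenitors. Of the microglia and macrophage markers 9 of 16 were lower in Group3 neurospheres, with list means of 5.78 to 6.29 in Trp53 and 3.90 to 4.06 in Group3 neurospheres. Of 3 red blood cell markers 1 was lower, Hba-a1 (-4.80, SE 0.44), with a list median of 0.14, and of the neuronal markers 7 of 10 were lower. The part of these cell types in the vessel gene differences was not tested.

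Trp53 neurosphere replicate 3 was the highest of its group in 23 of 32 genes, including 15 of 17 endothelial genes, when it was the highest in 36.9% of all genes. Its excess over replicates 1 and 2 had a median of 0.48 in endothelial genes. Its Myl9 of 8.96 stood above the 5.90 and 5.71 of replicates 1 and 2, and Kcnj8 was instead highest in replicate 2, at 6.77 against 4.33 and 4.69.

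Untreated tumors set against Trp53 neurospheres (dka) were higher in 11 of 32 genes and lower in 0, when 9.15% of all genes were higher. The 11 comprised 6 endothelial, 4 pericyte and 1 matrix gene. Vwf read 4.72, 3.97 and 4.29 in these neurospheres, below the tumor values given above, and rose by 2.06 (SE 0.34, limma adjusted p = 0.000307). Egfl7, a secreted factor of endothelium, read 6.92, 7.48 and 7.71 in tumors against 5.54, 4.65 and 5.77, with no overlap, and rose by 2.06 (SE 0.30, limma adjusted p = 0.000115). Acta2 rose by 2.64 (SE 0.57), Rgs5 by 2.41 (SE 0.50), Emcn by 1.94 (SE 0.50), Notch3 by 1.43 (SE 0.37), Col1a1 by 1.28 (SE 0.30) and Pdgfrb by 1.19 (SE 0.32). Cldn5, at -0.13 (SE 0.47), and Slco1c1, at -1.20 (SE 0.56, limma adjusted p = 0.165), did not pass, and both overlapped between tumors and Trp53 neurospheres. Of 10 other barrier genes 2 were higher in tumors, the lipid transporter Mfsd2a (2.15, SE 0.66, limma adjusted p = 0.033) and the lactate transporter Slc16a1 (1.09, SE 0.22, limma adjusted p = 0.00195), and 0 were lower. The calls rest partly on single arrays, since 5 of the 11 were kept without untreated tumor replicate 3, 6 without Trp53 neurosphere replicate 1 and 8 without Trp53 neurosphere replicate 2. Acta2, Rgs5, Vwf, Egfl7 and Col1a1 were kept in all 3 cases. Here 0 of 16 microglia markers passed, and 0 had an unadjusted p under 0.05. Of 3 red blood cell markers 1 was lower in tumors, when 1103 of all 17097 genes were lower. It was Hba-a1 (8.10 against 9.55 in Trp53 neurospheres, -1.46, SE 0.44, limma adjusted p = 0.0306), with overlapping arrays and a list median of 0.14. The part of blood and immune cells in the vessel gene signal of these neurospheres was not tested.

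No vessel gene passed the test between secondary and untreated tumors. With limma 0 of 32 passed, when 0.538% of all genes did, and 2 had an unadjusted p under 0.05, when 12.7% of all genes had. With arrays weighted by their quality 0 of 32 passed, when 3.47% of all genes did. The 2 with an unadjusted p under 0.05 were the matrix proteoglycans. Lum read 3.83, 3.93 and 3.69 in secondary tumors and 4.28, 4.65 and 7.33 in untreated tumors, which did not overlap, for a difference of -1.60 (SE 0.52, limma adjusted p = 0.19). Dcn read 4.36, 4.79 and 5.21 against 5.04, 6.02 and 8.43, overlapping slightly, for a difference of -1.71 (SE 0.66, limma adjusted p = 0.269). Leaving out untreated tumor replicate 1 brought Lum past the threshold (-2.17, limma adjusted p = 0.0483). Differences ran from -1.71 to 0.60 over the 32 genes, with SEs of 0.16 to 1.06, and the untreated spread included replicate 3. Of 25 other matrix genes 0 were higher on average, and 1 fell, the collagen chaperone Serpinh1 by 2.71 (SE 0.51, limma adjusted p = 0.0169).

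Against Group3 neurospheres (dka), a comparison that shares its neurospheres with that of the untreated tumors, secondary tumors rose in 18 of 32 genes and fell in 1, when 10.2% of all genes rose and 14.5% fell. The 18 were 14 endothelial, 3 pericyte and 1 matrix gene. Rgs5 read 8.92, 8.54 and 9.02 in secondary tumors, a rise of 5.26 (SE 0.50, limma adjusted p = 6.94e-07), and Acta2 8.11, 8.66 and 8.48, a rise of 3.5 (SE 0.57, limma adjusted p = 0.000176). Cd34 read 5.86, 6.6 and 6.73 and rose by 2.81 (SE 0.51), and Vwf read 5.71, 5.73 and 5.93 and rose by 2.04 (SE 0.34). None of these overlapped the neurospheres, and the endothelial list means of the 3 secondary tumors were 5.48 to 5.61. Notch3 fell by 1.46 (SE 0.37, limma adjusted p = 0.00588), with 6.17, 5.97 and 6.22 in secondary tumors, all below the 3 dka neurospheres. Of the matrix genes Col1a1 rose (1.10, SE 0.30). Col3a1 (2.68, SE 1.06, limma adjusted p = 0.0714), Dcn (0.83, SE 0.66) and Lum (-0.02, SE 0.52) did not pass, and Slco1c1 did not either (1.39, SE 0.56, limma adjusted p = 0.0804).

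Drug treated tumors were each compared with the same 2 untreated mmm tumors, so the 3 comparisons share their controls. For pemetrexed 0 of 32 genes passed with limma, when 0% of all genes did, and 2 genes had an unadjusted p under 0.05, among 807 of all genes. For gemcitabine 0 of 32 passed, when again 0% of all genes did, and 2 had an unadjusted p under 0.05, among 1472. For the combination 0 of 32 passed, when 0.076% of all genes did, and 4 had an unadjusted p under 0.05, among 1350. The median difference over the 32 genes was -0.04, 0.04 and -0.14, against 0.05, 0.05 and 0.03 over all genes. The median SE was 0.47, 0.43 and 0.43, and differences well above that size were not detectable either. Ly6c1 at -1.60 after pemetrexed (limma adjusted p = 0.925) and Dcn at -2.03 after the combination (limma adjusted p = 0.523) did not pass. The lack of calls therefore does not exclude changes of that size.

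Slco1c1 read 8.40 and 8.38 in untreated tumors, 5.97 and 6.83 after pemetrexed, 7.84, 6.32 and 9.48 after gemcitabine, and 6.65, 7.45 and 7.51 after the combination. The pemetrexed and combination arrays all lay below the untreated pair, and gemcitabine spanned it. The differences were -1.99 (SE 0.69, limma adjusted p = 1), -0.50 (SE 0.63) and -1.19 (SE 0.63). Astrocyte markers, with means of 9.39 and 8.88 untreated, gave 7.83 and 8.84 after pemetrexed, 8.22, 6.72 and 9.59 after gemcitabine, and 7.4, 8.97 and 8.79 after the combination. After pemetrexed the median difference was -0.74 over astrocyte, -1.24 over oligodendrocyte and -0.94 over neuronal markers. In the same order it was -0.80, -1.06 and -1.13 after gemcitabine, and -0.85, -1.48 and -1.28 after the combination. In each of these lists 0 passed the test. Their part in Slco1c1 was not tested. Ly6c1 read 8.30 and 8.45 untreated, 6.59 and 6.95 after pemetrexed, 7.10, 6.36 and 8.38 after gemcitabine, and 7.08, 7.78 and 7.28 after the combination. It gave -1.60 (SE 0.49, limma adjusted p = 0.925), -1.09 (SE 0.45) and -1.0 (SE 0.45), with gemcitabine replicate 3 within the untreated range. Without that array Ly6c1 passed for gemcitabine (-1.65, limma adjusted p = 0.0384).

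Dcn read 7.70 and 9.43 untreated, 6.97 and 6.96 after pemetrexed, 6.31, 5.99 and 7.60 after gemcitabine, and 5.46, 7.0 and 7.16 after the combination. All 8 treated arrays lay below both untreated ones, and the differences were -1.60 (SE 0.81), -1.93 (SE 0.74, limma adjusted p = 0.485) and -2.03 (SE 0.74, limma adjusted p = 0.523). Vtn read 8.24 and 9.20 untreated, 7.92 and 7.57 after pemetrexed, 7.56, 7.08 and 8.16 after gemcitabine, and 6.05, 8.05 and 7.63 after the combination. Again the treated arrays lay below the untreated pair, by -0.97 (SE 0.71), -1.12 (SE 0.64) and -1.48 (SE 0.64, limma adjusted p = 0.593). The share of all genes with treated arrays all below the untreated pair was not counted. The part of neural cells in Dcn and Vtn was not tested. Rgs5 stayed between 8.55 and 9.77 on all 10 mmm tumor arrays, with differences of -0.07, -0.12 and -0.58. Acta2 read 9.34 and 8.78 after pemetrexed, 9.39, 9.43 and 8.40 after gemcitabine and 7.61, 8.92 and 8.91 after the combination, against 7.78 and 8.70. Its differences of 0.82, 0.84 and 0.24 (SE 0.64 to 0.70) did not pass. Col3a1 reached 13.8 in combination replicate 1, against 11.1 and 10.4 in the others and 10.2 and 11.5 in untreated tumors.

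With arrays weighted by their quality, 2 genes passed as lower after pemetrexed, Ly6c1 and Slco1c1, when 1.18% of all genes passed. Weighted in the same way 6 passed after gemcitabine, Acta2 higher and Tek, Flt1, Ly6c1, Vtn and Dcn lower, when 22.9% of all genes passed. After the combination 0 of 32 passed with the same weights, when 3.06% of all genes did.

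**Figure D5:**
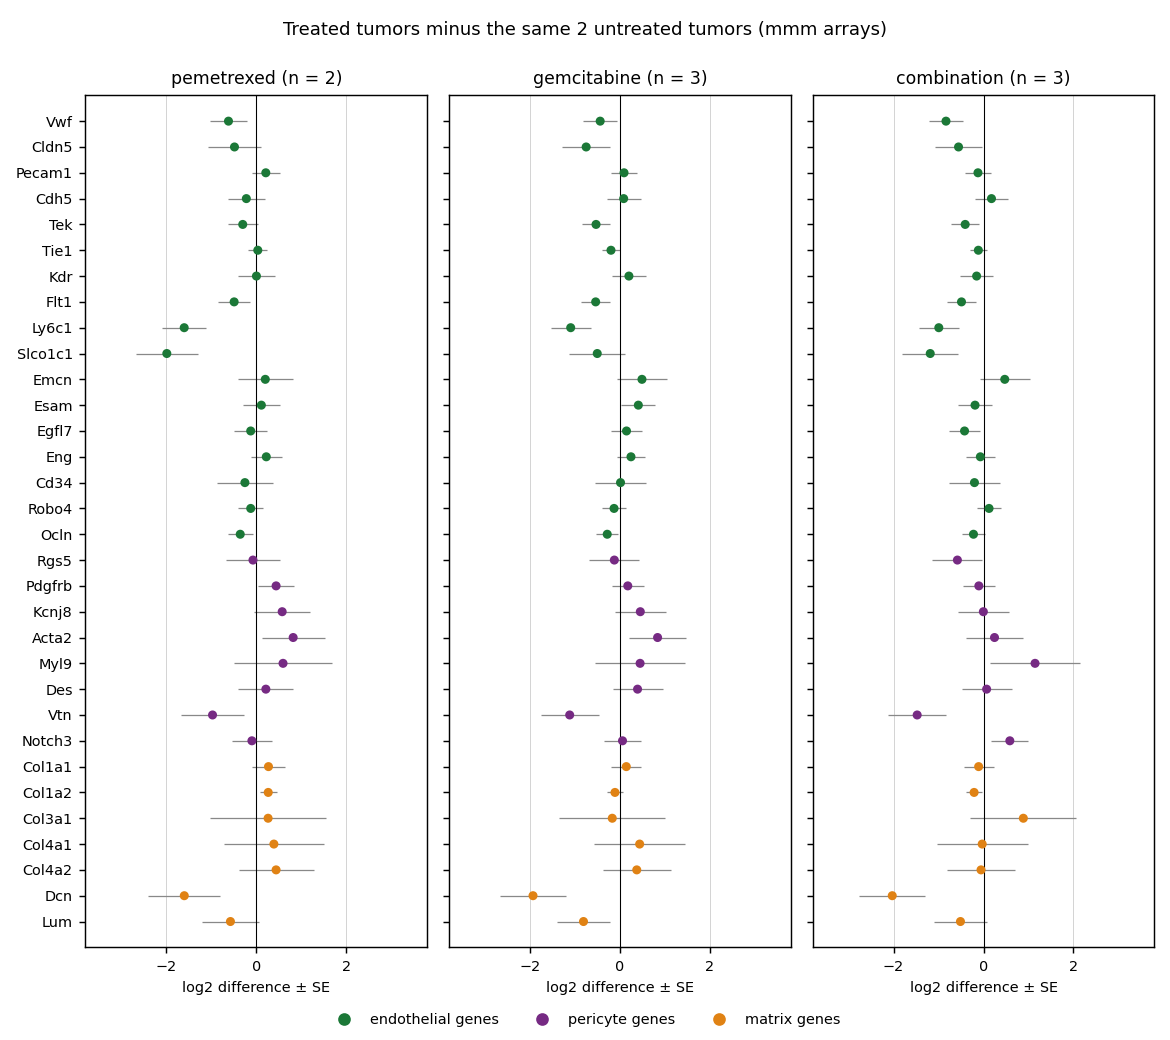
Log2 difference (x axes) of pemetrexed, gemcitabine and combination tumors minus the same 2 untreated mmm tumors, for the 32 measured genes (y axis), with bars of 1 SE; colours give the endothelial, pericyte and matrix genes. Dcn, Vtn, Ly6c1 and Slco1c1 lie to the left of 0 in all 3 panels, and no gene passed the test.

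The combination was also set against each drug alone. Against pemetrexed 0 of 32 passed with limma, when 0% of all genes did, and 1 had an unadjusted p under 0.05, among 427 of all genes. The largest differences were those of Slco1c1 (0.80) and Notch3 (0.68). Against gemcitabine 0 of 32 passed, when 0% of all genes did, and 0 had an unadjusted p under 0.05, among 898. The largest differences were those of Col3a1 (1.06) and Myl9 (0.70). With arrays weighted by their quality 0 of 32 passed against pemetrexed, when 0.0468% of all genes did, and 0 of 32 against gemcitabine, when 1.44% did.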

How the data were processed

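RNA was extracted with Trizol, amplified with NuGEN Ovation Pico WTA V2, labelled with NuGEN Encore Biotin and hybridised to Affymetrix HT MG-430 PM arrays, per the labels' protocols. The values are log2 expression deposited by the authors, made with RMA (version not given) and Partek 6.6, per the submitters' processing notes. Each gene was read from its single-symbol probe set with the highest mean over all 26 arrays. limma 3.58.1 (R 4.3.3) fitted 17097 genes with 9 means, a group split by code counting as 2, and p-values were Benjamini-Hochberg adjusted over all of them, with a threshold of 0.05. The number of arrays limits the precision. The members and gene lists were chosen with earlier results of these data known. Members named with full statistics were the up to 8 that passed with the largest difference and no overlap between arrays, or the 2 largest where none did, with up to 4 genes of each other list. Others named were chosen after their values were seen. Alternatives were the mean of probe sets, a filter on dim genes, quantile normalization, equal interquartile ranges, arrays of 1 code, an intensity trend, array weights and leaving out each array. The fit was run on simulated data with independent noise of the same spread on every array. Such data hold no arrays that stand apart from their group, so the run does not vouch for the calls here. Tables and plots used Python 3.11.15, pandas 2.3.3 and matplotlib 3.10.9.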

Additional observations from a re-analysis of the deposited data

Results flagged for a closer look

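Within the 4 mmm Group3 neurospheres, the group large enough for this check, single arrays stood apart in 4 of 35 items, where chance alone gives about 5%. Endoglin (Eng), a co-receptor for TGF-beta on endothelium, read 5.40 in replicate 4, with the nearest other replicate at 4.72. Col1a1 read 4.08 in replicate 4, with the nearest at 3.83. The mean level of the pericyte genes was 5.51 in replicate 4, with the nearest at 4.70. Robo4 read 3.68 in replicate 5, with the nearest at 3.53.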

How the results depend on the processing

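Of 180 recomputed counts of genes that passed, 162 stayed within 1.5 times the reported count, and 18 did not. Of 839 recomputed differences of single genes 819 kept their direction and side of the threshold, 12 no longer passed, 8 newly passed and 0 reversed. Leaving out genes dimmer than the median gene tests only 13 of the 32 genes. Of these 9 then passed with both codes averaged, when 37.2% of the 8549 genes tested did in either direction. The count was 9 under dka (29.4% of genes), 8 under mmm (29.5%) and 9 for secondary tumors against Group3 neurospheres (40.4%). It was 5 for tumors against Trp53 neurospheres (26.4%). Fitting the arrays of 1 code gave 6 of 32 for tumors against Trp53 neurospheres, when 14.7% of all genes passed. Array weights gave 17 of 32 there (21% of all genes) and 26 for the mmm tumors against neurospheres (34.3%). They gave 1 for the difference between the codes (15.2%), 2 for pemetrexed (1.18%) and 6 for gemcitabine (22.9%). With replicate 7 as the only mmm neurosphere, the difference between the codes was -0.89 for Des and 2.10 for Col4a1. The cause of these changes was not tested. Leaving out each array gave 6 to 6 genes for Group3 against Trp53 neurospheres, 5 to 15 for tumors against Trp53 neurospheres, 14 to 23 for dka and 12 to 19 for mmm tumors against Group3 neurospheres, 23 to 27 for their average and 0 to 3 for the difference between codes. It gave 0 to 1 for secondary against untreated tumors, 15 to 18 for secondary tumors against neurospheres, 0 to 1 for gemcitabine and 0 for the other drug comparisons. No paired analysis was possible because the labels give no replicate numbers that groups share. Tie1, Robo4, Col1a2, Ocln, Cdh5, Pecam1, Tek, Pdgfrb, Des, Lum and Col1a1 were dim. Their means over all arrays ran from 3.36 (Col1a2) to 4.46 (Col1a1), so their differences rest on signals near the lower end of the scale.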

Other observations

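Against dka Group3 neurospheres, 6 of 25 other fibroblast and matrix genes were lower in secondary tumors and 1 was higher, when 14.5% of all genes fell and 10.2% rose, and 18 of 25 did not pass. Those that fell included the fibrillar collagen Col5a2 (5.92 ± 0.31 against 10.2 ± 0.58, SD, n = 3 each), which fell by 4.27 (SE 1.05, limma adjusted p = 0.00517). Serpinh1, the chaperone that folds procollagen, fell by 4.02 (SE 0.51), and Lamb2, a laminin chain of mature basement membranes, fell by 2.18 (SE 0.59). Of 14 other mural genes 1 rose, the gap junction gene Gja4 (0.79, SE 0.15), and 0 fell. Of 18 other endothelial genes 7 rose, among them Sox18 (2.20, SE 0.43) and Aplnr (2.09, SE 0.56), and 2 fell, among them Plvap, which fell by 2.95 (SE 0.46). The microglia and macrophage markers rose in 13 of 16, and their part in these values was not tested.

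Across the codes, 9 of 16 microglia and macrophage markers had a larger difference between untreated tumors and Group3 neurospheres under mmm, with a median of 1.56. Over all genes 9.17% differed between the codes in either direction. Of 3 red blood cell markers 1 passed, Hba-a1 (4.38, SE 0.65, limma adjusted p = 0.00102), with a list median of 0.77 and 2 of 3 above 0.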
